A study of Mus musculus with 9 samples.

Results

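The miR-30 family was described here through 8 rows of a table of mature miRNAs counted in mouse liver, out of 1140 rows in the table. The rows were taken by name, with earlier results of these data known. They are the 5 guide arms mmu-miR-30a-5p, 30b-5p, 30c-5p, 30d-5p and 30e-5p and the 3 main passenger arms mmu-miR-30a-3p, 30c-2-3p and 30e-3p. The paper that reported these data had already singled out mmu-miR-30c-2-3p as correlated with reversal, so its changes here are not independent evidence. The other 4 rows of the family (mmu-miR-30b-3p, 30c-1-3p, 30d-3p and 30f) are given only where a ratio needs them or beside the members. The samples were livers of 9 male C57BL/6 mice, 8 weeks old at the start, from which small RNA was sequenced. The control group (n = 3) was injected intraperitoneally with normal saline for 8 weeks. The TAA group (n = 3) was injected for 8 weeks with thioacetamide (TAA), a hepatotoxin whose repeated use leaves fibrosis. The recovery group (n = 3) had the same 8 weeks of TAA and then 8 weeks with no injection. All groups were wild type, and each sample was a separate mouse. The recovery mice were 8 weeks older at sacrifice than the others, so recovery and age cannot be told apart. By the paper, TAA mice were killed within days of the last injection, so recent injury and fibrosis cannot be told apart in TAA liver. The comparisons asked whether the family was changed in the fibrotic liver, and whether such a change was undone after withdrawal.

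A miRNA hairpin is cut into a duplex of a 5p and a 3p arm. The arm kept by the Argonaute protein is called the guide, and the other, which is mostly degraded, the passenger. The guide finds its target mRNAs largely through the seed, a short stretch near its 5′ end, so miRNAs that share a seed share many predicted targets. The 5p arms of the miR-30 family are abundant in hepatocytes and many other cells, and connective tissue growth factor, a matrix protein linked to fibrosis, is among their known targets.

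The mature sequences are shown to make clear which members share a seed and how few bases tell them apart. They were taken from the RefSeq hairpin records on GRCm38.p6, which held entries for 6 of the 8 members and for 935 of the 1106 rows with names of known miRNAs. They are written 5′ to 3′, and the capitals mark the seed (bases 2 to 8).
mmu-miR-30a-5p: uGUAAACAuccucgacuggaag
mmu-miR-30e-5p: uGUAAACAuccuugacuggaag
mmu-miR-30c-5p: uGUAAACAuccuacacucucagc
mmu-miR-30a-3p: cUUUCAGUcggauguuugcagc
mmu-miR-30e-3p: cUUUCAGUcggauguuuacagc
mmu-miR-30c-2-3p: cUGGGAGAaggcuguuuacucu
mmu-miR-30c-1-3p: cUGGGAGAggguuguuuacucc

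The guide arms shown carried 1 seed, GUAAACA, whereas the passenger arms carried 2, UUUCAGU on 30a-3p and 30e-3p and UGGGAGA on both 30c passengers. Counted from the 5′ end, mmu-miR-30e-5p differed from mmu-miR-30a-5p by C13U alone, and mmu-miR-30e-3p differed from mmu-miR-30a-3p by G18A alone. The handling of mismatches and of reads that match several miRNAs is not given in the sources used here, so the split of reads between 30a and 30e is uncertain. No miR-30 row was a near copy of another row, at a tolerance of 2% of the row total. The 30c passengers were further apart (A9G, C12U and U22C from 30c-2-3p to 30c-1-3p). Outside the family, the only listed row with one of these seeds was mmu-miR-384-5p, with 1 count in TAA replicate 3 and 0 counts in each of the other 8 libraries, which allows at most 0.231 to 0.331 TPM (3 counts of the library total). Among the rows with a sequence entry, reads with the seed GUAAACA were therefore miR-30 reads but for this count.

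On GRCm38 (mm10, to which the authors mapped the reads), Mir30a (chr1:23272269-23272339, plus strand) and Mir30c-2 (chr1:23291701-23291784, plus strand) were 19361 bases apart. Mir30a lay in no annotated host gene of GENCODE release M21, and Mir30c-2 lay in an exon of the lincRNA Gm27028. Mir30c-1 (chr4:120769534-120769622, minus strand) and Mir30e (chr4:120772606-120772697, minus strand) were 2983 bases apart, both in introns of Nfyc, which encodes a subunit of the NF-Y transcription factor. mmu-miR-30c-5p is made by both Mir30c-1 and Mir30c-2 with the same sequence, so its counts belong to both loci together. The hairpins of Mir30a and Mir30c-2 are shown, with both arms in capitals, because each of these neighbouring loci gives both a guide and a passenger member.
Mir30a: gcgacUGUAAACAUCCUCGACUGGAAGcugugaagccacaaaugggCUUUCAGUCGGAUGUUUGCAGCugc
Mir30c-2: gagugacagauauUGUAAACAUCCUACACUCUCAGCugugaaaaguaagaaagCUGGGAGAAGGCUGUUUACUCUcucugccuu

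The libraries held 9071847 to 12983378 counts. The deposited TPM is the count scaled to the same total in every library and has no term for length. This total holds both mmu-miR-122-5p and its nearly parallel row mmu-miR-122b-3p, so TPM values depend on both rows. The factors of TMM, which scales libraries so that most miRNAs do not change, were 0.738 to 0.792 in control, 1.43 to 1.63 in TAA and 0.766 to 0.887 in recovery samples. Library totals and TMM therefore gave different pictures of TAA liver: the median log2 fold change of all 420 rows tested for TAA vs control was 0.11 with TMM and 1.23 with library totals, a shift of 1.12. Both scales are given below for this reason, together with ratios within a library, which need no scaling. All marker miRNAs of the cell type lists were above 0 in every sample, the 3 hepatocyte markers included (mmu-miR-122-5p, 192-5p and 194-5p).

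The family was among the most abundant of the liver. By mean TPM over the 9 samples mmu-miR-30a-5p ranked 9th of all rows, 30d-5p 12th, 30e-5p 21st and 30c-5p 27th, whereas 30b-5p ranked 76th. The passenger arms 30a-3p, 30c-2-3p and 30e-3p ranked 68th, 97th and 99th. The mature sequences shown are 22 or 23 bases long, so length hardly enters a comparison between them, but each miRNA is ligated into a small RNA library with its own efficiency, which was not measured here.

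The TPM of mmu-miR-30a-5p, the leading guide arm, was 20861, 21559 and 23402 in control, 24602, 18596 and 18135 in TAA and 20098, 29830.4 and 22439 in recovery replicates 1 to 3. The groups overlapped, and TAA replicate 1 and recovery replicate 2 were above the others of their groups. mmu-miR-30d-5p came next, with TPM values of 7701, 8186 and 8733 in control, 11052, 9128 and 8453 in TAA and 8915, 9765 and 9507 in recovery. All its recovery samples were above all control samples on this scale (exact two-sided permutation test, p = 0.1, the smallest that 3 against 3 allows). mmu-miR-30e-5p reached TPM values of 3879, 3332 and 3590 in control, 4441, 3185 and 3539 in TAA and 3571, 5141 and 3015 in recovery, with overlap between all groups. mmu-miR-30c-5p had TPM values of 1681, 1884 and 2003 in control, 2171, 1981 and 2054 in TAA and 1827, 2272 and 1922 in recovery, again with overlap. mmu-miR-30b-5p, the rarest guide arm, was the exception among the guides. Its TPM was 183, 185 and 176 in control, 228, 232 and 213 in TAA and 177, 211 and 187 in recovery, so every TAA sample was above every sample of the other groups. With TMM scaling the direction turned, and every TAA sample was below every sample of the other groups.

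Among the passengers, mmu-miR-30a-3p had TPM values of 273, 277 and 275 in control, 285, 252 and 224 in TAA and 257, 289 and 314 in recovery. mmu-miR-30e-3p had TPM values of 96.4, 104 and 103 in control, 128, 100.1 and 91.7 in TAA and 85.5, 128 and 112 in recovery. Both overlapped between the groups. mmu-miR-30c-2-3p did not: its TPM was 138, 133 and 136 in control, 113, 114 and 107 in TAA and 146, 148 and 138 in recovery. Every TAA sample was below every control and recovery sample, and every recovery sample was above every control sample by a narrow margin. With TMM scaling recovery and control samples overlapped for this row. On the TPM scale, 2 of the 8 members (30b-5p and 30c-2-3p) were without overlap in TAA vs control, where 79.5% of the 420 rows tested were without overlap. The same members were without overlap in recovery vs TAA (69.8% of the rows tested), as were 30d-5p and 30c-2-3p in recovery vs control (27.9%). The separation of 30d-5p and 30c-2-3p from control was not seen with TMM scaling.

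The order of the members by level was nearly fixed. In every sample 30a-5p was above 30d-5p, which was above 30e-5p, and 30c-5p followed, without overlap between neighbours in any group. Below them, 30a-3p and 30b-5p did not overlap in control (273 to 277 against 176 to 185 TPM) or recovery samples (257 to 314 against 177 to 211 TPM) but did in TAA samples (224 to 285 against 213 to 232 TPM). Likewise 30c-2-3p and 30e-3p overlapped in TAA samples (107 to 114 against 91.7 to 128 TPM) and not in the other groups.

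**Figure D1:**
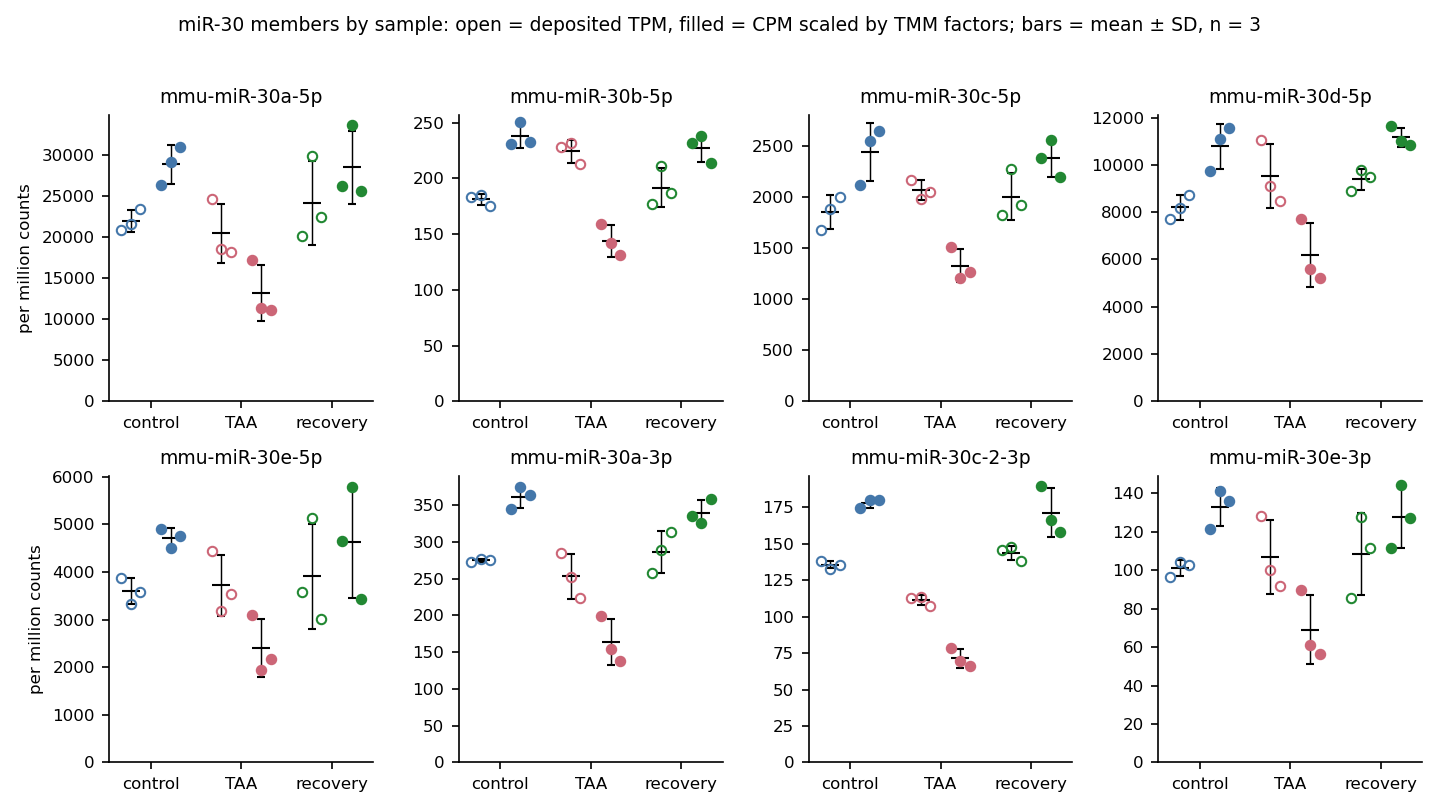
Each panel plots 1 of the 8 members, with TPM or CPM on the y axis and the 3 groups on the x axis. Open points are the deposited TPM, filled points the CPM scaled by TMM factors, and bars the mean ± SD (n = 3). The filled TAA points lie below the filled points of both other groups in all 8 panels, while the open TAA points do so only for mmu-miR-30c-2-3p.

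In TAA vs control with TMM scaling, all 8 members were lower in TAA liver, with log2 fold changes from -1.41 to -0.81 and an FDR of at most 0.0018 (edgeR quasi-likelihood test, Benjamini-Hochberg over the 420 rows). Of all rows, 44.5% were lower and 58.3% passed the FDR threshold in either direction. The levels below are CPM, counts relative to the TMM-scaled library size. The level of mmu-miR-30a-5p was 26338, 29196 and 30993 CPM in control and 17176, 11388 and 11162 CPM in TAA samples. It fell by 1.22 on the log2 scale (SE 0.15, FDR 0.000585, edgeR). Its passenger mmu-miR-30a-3p went from 344, 375 and 364 CPM to 199, 154 and 138 CPM, a log2 fold change of -1.24 (SE 0.15, FDR 0.000548, edgeR). mmu-miR-30c-2-3p showed the largest change of the members, from 174, 180.1 and 179.8 CPM to 78.6, 69.6 and 66.0 CPM (log2 fold change -1.41, SE 0.12, FDR 0.000114, edgeR). It ranked 38th lowest of the 420 rows by log2 fold change, and 30b-5p, the least changed member, ranked 92nd.

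The arms of Mir30e also passed both thresholds of a differentially expressed miRNA (DEM), an FDR under 0.05 with at least a 2-fold difference. mmu-miR-30e-5p went from 4897, 4512 and 4754 CPM to 3100.2, 1951 and 2178 CPM (log2 fold change -1.07, SE 0.15, FDR 0.00102, edgeR). mmu-miR-30e-3p went from 122, 141 and 136 CPM to 89.7, 61.3 and 56.5 CPM (log2 fold change -1.04, SE 0.17, FDR 0.0018, edgeR). TAA replicate 1 was the highest TAA sample for all 8 members, and yet no member overlapped between the groups on this scale, where 66.7% of all rows tested were without overlap. The other 3 guide arms passed the FDR threshold but stayed under a 2-fold difference. mmu-miR-30c-5p went from 2122, 2551 and 2653 CPM to 1516, 1213 and 1264 CPM (log2 fold change -0.96, SE 0.12, FDR 0.00065, edgeR). mmu-miR-30d-5p went from 9723, 11085 and 11565 CPM to 7716, 5589 and 5203 CPM (log2 fold change -0.90, SE 0.14, FDR 0.00131, edgeR). mmu-miR-30b-5p went from 231, 251 and 233 CPM to 159, 142 and 131 CPM (log2 fold change -0.81, SE 0.12, FDR 0.00122, edgeR).

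Thus 5 of 8 members were DEMs lowered in TAA liver, 2 of them guide and 3 passenger arms, where 41.7% of all rows tested were DEMs in either direction and 16.7% were lowered. The count was 3 without TAA replicate 2 or without TAA replicate 3, when both arms of Mir30e dropped out, and 7 without TAA replicate 1. The median log2 fold change was -0.96 over the guide arms, -1.24 over the passenger arms, -1.05 over all 8 members and 0.11 over all rows. Of the other family rows, mmu-miR-30b-3p (log2 fold change -1.07) and 30c-1-3p (-1.13) were also DEMs, and 30d-3p (-0.997) and 30f (-0.98) were not.

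With library totals in place of TMM, the direction was lost. These totals hold mmu-miR-122b-3p beside its nearly parallel row mmu-miR-122-5p, and each was lower in TAA liver (log2 fold change -1.96 with TMM). The mean TPM of mmu-miR-122-5p was 203329 in control and 113471 in TAA samples. Leaving out its parallel row would therefore shrink control totals more than TAA totals and lower every fold change on this scale. Such totals were not tested for fold changes. Small positive values, such as 0.048 for 30e-5p, 0.080 for 30e-3p and 0.16 for 30c-5p, may thus not keep their sign, nor the number of members higher in TAA its value. The log2 fold changes ran from -0.29 to 0.31, 3 of 8 members were lower and 5 higher in TAA (15.5% of all rows were lower), and none was a DEM, while 58.3% of all rows were DEMs (241 raised and 4 lowered, against 105 and 70 with TMM). The FDR threshold alone was passed by 2 of 8 members, where 77.1% of all rows passed it, and in opposite directions, mmu-miR-30b-5p at 0.31 (SE 0.11, FDR 0.0384, edgeR) and mmu-miR-30c-2-3p at -0.29 (SE 0.11, FDR 0.0417, edgeR). A change of scaling moves all rows of a comparison by about the same amount, so the median of the members relative to that of all rows stays nearly the same by construction, at -1.17 on the log2 scale with TMM and -1.16 with library totals. Relative to the median row, single members ranged from -0.93 (30b-5p) to -1.52 (30c-2-3p) with TMM.

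**Figure D2:**
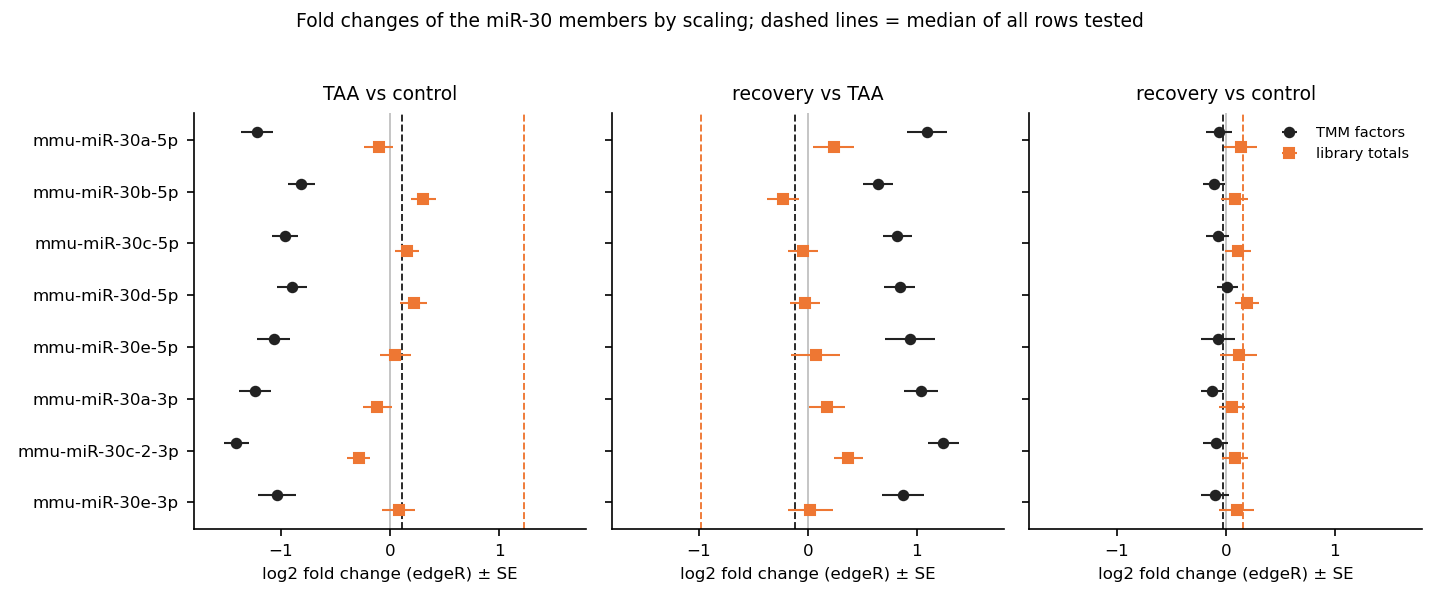
The log2 fold change of each member (x axis, ± SE from edgeR) is drawn with TMM factors (circles) and with library totals (squares) for the 3 comparisons. The dashed lines mark the median of all rows tested on each scale: for TAA vs control the members lie left of it on both scales, around -1.05 against 0.11 with TMM and around 0.064 against 1.23 with library totals.

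In recovery vs TAA with TMM scaling, which uses the same TAA samples, all 8 members were higher in recovery liver, with log2 fold changes from 0.64 to 1.24 and an FDR of at most 0.0147 (edgeR), a threshold that 39.1% of all rows passed in either direction. DEMs were 3 of 8 members, where 24.8% of all 440 rows tested were DEMs and 10.2% were raised. These were mmu-miR-30c-2-3p, mmu-miR-30a-5p and mmu-miR-30a-3p. The level of 30c-2-3p was 189.9, 166 and 158 CPM in recovery samples, above all TAA samples (log2 fold change 1.24, SE 0.14, FDR 0.000593, edgeR). That of 30a-5p was 26234, 33623 and 25619 CPM (log2 fold change 1.10, SE 0.19, FDR 0.00342, edgeR), and that of 30a-3p was 336, 326 and 358 CPM (log2 fold change 1.04, SE 0.16, FDR 0.0021, edgeR). These members were DEMs in both comparisons in opposite directions, that is, reversed DEMs in the study's terms, as were 22% of the 419 rows tested in both. The comparisons share the TAA samples, so a reversal is not independent evidence.

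The other members were short of a 2-fold difference in recovery vs TAA. The log2 fold changes were 0.93 for mmu-miR-30e-5p (SE 0.23, FDR 0.0147, edgeR), whose recovery samples were spread from 3442 to 5794 CPM, and 0.87 for mmu-miR-30e-3p. They were 0.84 for 30d-5p, 0.82 for 30c-5p and 0.64 for 30b-5p, again the member that moved least. No member overlapped between TAA and recovery samples on the TMM scale, where 53.4% of all rows were without overlap. The count of DEMs was 6 without TAA replicate 1, 5 without recovery replicate 1 and 1 (30c-2-3p) without TAA replicate 3. With library totals none was a DEM (47% of all rows were, with 4 raised and 203 lowered), and the members ran from -0.23 to 0.37. Their median was 1.02 above that of all rows, by construction on both scales alike.

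In recovery vs control no member was a DEM, where 11.3% of the 391 rows tested were. The log2 fold changes ran from -0.12 (30a-3p) to 0.013 (30d-5p), with an FDR between 0.581 and 0.96 (edgeR) and standard errors of 0.10 to 0.15. All members overlapped between recovery and control samples on the TMM scale. At an unadjusted edgeR p below 0.05, 0 of 8 members passed, where 23% of all rows did, and DESeq2 also called none. The median was -0.084 for members against -0.025 for all rows with TMM, and 0.11 against 0.16 with library totals, where 12.5% of all rows and no member were DEMs.

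Cell type markers moved with these differences. Their DEM calls rest on TMM scaling, whereas the summed levels are given as TPM unless CPM is named. All 3 hepatocyte markers were DEMs lowered in TAA liver and raised in recovery vs TAA, and their summed TPM was 273164 to 298472 in control, 163104 to 175763 in TAA and 242229 to 307701 in recovery samples. All 5 biliary epithelial markers (mmu-miR-200a-3p, mmu-miR-200b-3p, mmu-miR-200c-3p, mmu-miR-141-3p and mmu-miR-429-3p) moved the other way, with summed TPM of 429.8 to 577 in control, 5441 to 7927 in TAA and 949.9 to 1255 in recovery samples. Raised in TAA liver were also 3 of 5 mesenchymal markers (19241 to 24643, 29449.8 to 64191 and 16755 to 31359 TPM) and 2 of 5 leukocyte markers (145 to 160, 435 to 518 and 112 to 194 TPM). The mesenchymal sum was without overlap between TAA and control on the TPM scale only, and overlapped with TMM scaling (25482 to 31112 CPM in control and 18034 to 39509 CPM in TAA samples). Neither of the 2 endothelial markers was a DEM, and their sum turned with the scaling, from 6576 to 6715 TPM in control and 8755 to 11204 TPM in TAA samples to 8478 to 8952 CPM and 5700.4 to 6896 CPM. With TMM both passed the FDR threshold alone, mmu-miR-126a-3p at a log2 fold change of -0.55 (FDR 0.00371, edgeR) and mmu-miR-126a-5p at -0.81 (FDR 0.00107, edgeR). Of the red cell markers, 1 of 3 was a lowered DEM (summed TPM of 583 to 1011 in control and 337 to 749.8 in TAA samples). In bulk liver, fewer cells of a type and less RNA per cell cannot be told apart, and the part of cell composition in the miR-30 differences was not tested.

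Within a library, the 5 guide arms together held 3.43%, 3.51% and 3.79% of the counts in control (mean 3.58% ± 0.188, SD, n = 3), 4.25%, 3.31% and 3.24% in TAA (3.60% ± 0.563) and 3.46%, 4.72% and 3.71% in recovery samples (3.96% ± 0.669). The Wilson interval (95%) of each share was at most ± 0.0119 percentage points and covers counting error only. The shares overlapped between all groups. TAA differed from control by 0.0219 percentage points (exact two-sided permutation test, p = 1), and TAA replicate 1 lay above the other TAA samples. Without it TAA was lower than control by a difference of -0.303 percentage points (p = 0.2, exact, the smallest that 2 against 3 allows). These shares also depend on the nearly parallel rows mmu-miR-122-5p and 122b-3p in the total. With both taken out, the share was 6.03% ± 0.234 in control, 4.65% ± 0.647 in TAA and 6.55% ± 0.691 in recovery samples (SD, n = 3). TAA then differed from control by -1.38 percentage points (exact two-sided permutation test, p = 0.1). The 3 passenger arms held 0.0507%, 0.0514% and 0.0513% of the counts in control, 0.0526%, 0.0465% and 0.0423% in TAA and 0.0488%, 0.0565% and 0.0564% in recovery samples.

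The make-up of the guide arms was taken as the share of each in their sum. mmu-miR-30a-5p made up 60.8%, 61.3% and 61.7% of the guide arm counts in control, 57.9%, 56.1% and 56.0% in TAA and 58.1%, 63.2% and 60.5% in recovery samples, so all TAA samples were below all others. mmu-miR-30d-5p made up 22.4%, 23.3% and 23.0% in control and 26.0%, 27.6% and 26.1% in TAA, with recovery at 25.8%, 20.7% and 25.6%. mmu-miR-30b-5p made up 0.508% ± 0.0387 in control, 0.631% ± 0.0851 in TAA and 0.488% ± 0.036 in recovery (SD, n = 3). For these 3 guides TAA did not overlap with either group (p = 0.1 for each, the smallest possible, exact permutation test). Such separation was common among ratios of all pairs of rows, whose share is given below. mmu-miR-30c-5p (5.18% ± 0.247, 5.81% ± 0.632 and 5.09% ± 0.248) and mmu-miR-30e-5p (10.1% ± 1.06, 10.3% ± 0.662 and 9.78% ± 1.45) overlapped.

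Ratios of 2 guide arms need no total. For 30a-5p to 30b-5p the log2 ratio was 6.83, 6.86 and 7.06 in control, 6.75, 6.32 and 6.41 in TAA and 6.82, 7.14 and 6.91 in recovery samples, a difference of -0.42 between TAA and control. For 30a-5p to 30d-5p the log2 ratio was 1.44, 1.40 and 1.42 in control, 1.15, 1.03 and 1.10 in TAA and 1.17, 1.61 and 1.24 in recovery samples, a difference of -0.32. With 30a-5p to 30c-5p (-0.27) these made 3 of 10 pairs of guide arms without overlap in TAA vs control, and 64.3% of all pairs of rows tested were without overlap. In recovery vs TAA 3 of 10 pairs were without overlap (50.9% of all pairs), and in recovery vs control 0 of 10 (33.7% of all pairs). At an unadjusted limma p below 0.05, 0 of 10 pairs of guide arms passed in each comparison, where 60.2%, 45.6% and 28.4% of all pairs of rows did in the order given. This fit had no variance trend, so the spread of each pair was drawn toward that of all pairs, rare rows included. For 30a-5p to 30d-5p the SD was 0.020 in control and 0.064 in TAA samples, and yet p was 0.219 (limma). The 0 of 10 therefore cannot show that the guide arms kept their ratios.

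**Figure D3:**
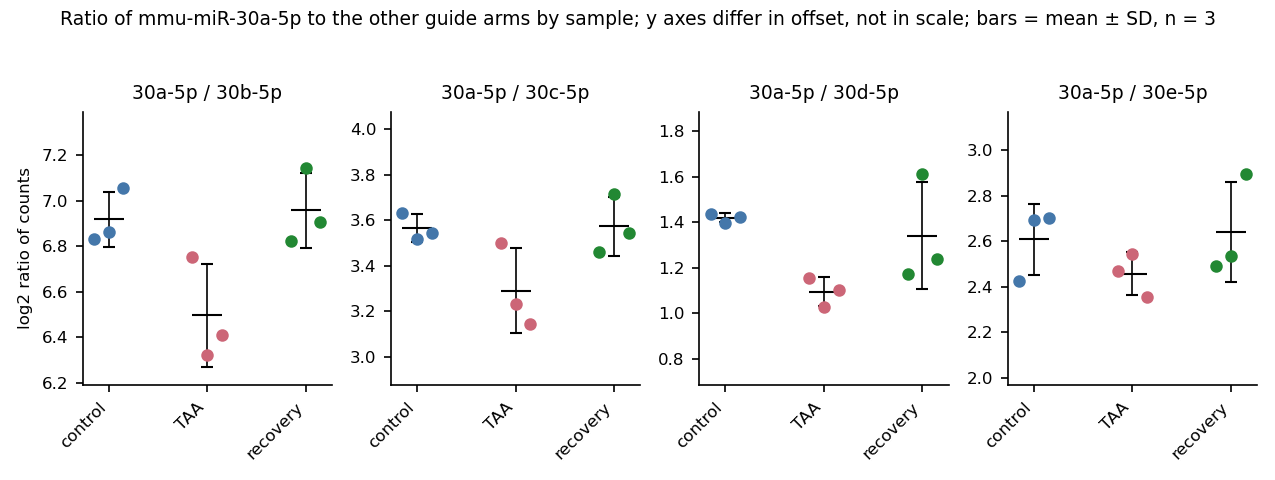
The log2 ratio of mmu-miR-30a-5p counts to each of the other 4 guide arms (y axis) is drawn per sample for the 3 groups, with bars for mean ± SD (n = 3). The TAA samples lie below the control samples for 30b-5p, 30c-5p and 30d-5p, by 0.42, 0.27 and 0.32 on average, and overlap with them for 30e-5p.

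The ratio of the 5p to the 3p count was then taken for each hairpin. In control replicates 1 to 3 it was 76.5, 77.8 and 85.2 for Mir30a and 40.2, 32.0 and 35.0 for Mir30e, and the 5p arm held 98.8% and 97.3% of the reads of these hairpins over all samples. For miR-30d it was 424, 426 and 483, and for miR-30b 9.82, 9.50 and 8.74. The 30c-5p count covers both 30c loci, and against it 30c-2-3p gave ratios of 12.2, 14.2 and 14.8, and 30c-1-3p ratios of 183, 212 and 224. All 6 pairings favoured the 5p arm, as did 78 of the 131 hairpins with a mean of at least 10 counts on both arms. By the size of the mean log2 ratio, miR-30d was 16th and miR-30b 76th of the 131.

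For Mir30a the arm ratios in TAA liver lay around those of control liver, at 86.4, 73.9 and 81.1, with 1 TAA sample above and 1 below the range of the control samples. The change in log2 ratio was 0.010 (95% interval -0.31 to 0.33, FDR 0.989, limma over 131 hairpins). For Mir30e it was 34.6, 31.8 and 38.6 in TAA (change -0.028, interval -0.41 to 0.35, FDR 0.986, limma).

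The ratio of 30c-5p to 30c-2-3p was 19.3, 17.4 and 19.2 in TAA samples, above all control samples (12.2 to 14.8) and all recovery samples (12.6, 15.4 and 13.9). The log2 ratio was 0.45 higher in TAA than in control (interval 0.18 to 0.71, unadjusted p = 0.00358, FDR 0.052, limma), which did not pass 0.05. Its difference from the changes of Mir30a and Mir30e was not tested. It was lower in recovery than in TAA, by a change of -0.42 (interval -0.68 to -0.16, FDR 0.0679, limma), a comparison that shares the TAA samples. With both 30c passengers summed the ratio was 11.4, 13.3 and 13.8 in control, 17.8, 16.3 and 17.6 in TAA and 11.6, 14.4 and 13.1 in recovery samples, also without overlap. For 30c-1-3p the change in TAA was 0.17 (interval -0.26 to 0.61, FDR 0.677, limma), with overlapping samples. Under a minimum of 50 counts on both arms, which leaves fewer hairpins in the test, the 30c-2 ratio passed the threshold in TAA vs control (FDR 0.0305, limma).

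The ratio of miR-30b was also without overlap, at 11.5, 10.2 and 12.0 in TAA against 8.74 to 9.82 in control and 9.25, 9.08 and 9.37 in recovery samples (change 0.26 in TAA vs control, interval -0.022 to 0.55, FDR 0.306, limma). That of miR-30d was 564, 470.5 and 393 in TAA samples, with overlap, and 579, 517 and 522 in recovery samples, all above control (change 0.28 in recovery vs control, interval -0.075 to 0.64, FDR 0.994, limma). In sum 2 of 6 pairings were without overlap when TAA was set against either other group, where 24.4% of all hairpins were in each, and 1 of 6 in recovery vs control, where 6.87% were. Called were 0 of 6 in TAA vs control, where 6.11% of the 131 hairpins were, 0 of 6 in recovery vs TAA (4.58%) and 0 of 6 in recovery vs control (0%). At an unadjusted limma p below 0.05, 1 of 6 pairings (30c-2) passed in TAA vs control, where 18.3% of all hairpins did, and 1 of 6 (30c-2 again) in recovery vs TAA, where 16.8% did, so these counts were near the share of all hairpins. In recovery vs control 0 of 6 passed (3.82% of all hairpins).

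**Figure D4:**
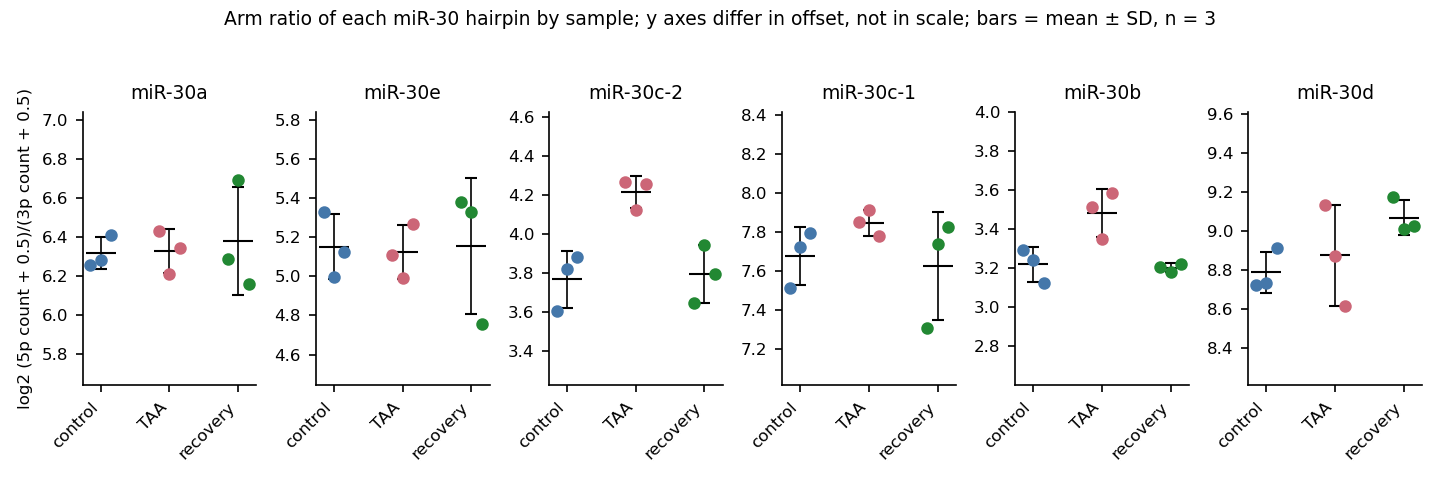
The log2 ratio of the 5p to the 3p count (0.5 added to each, y axis) is drawn per sample for 6 pairings of arms and 3 groups, with bars for mean ± SD (n = 3) and panels of equal height in log2 units. The TAA samples lie above both other groups for miR-30c-2 (means 3.77, 4.22 and 3.80 in control, TAA and recovery) and miR-30b, and overlap with them for miR-30a and miR-30e.

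Set against other abundant liver miRNAs, the guide arms were lower relative to mmu-miR-21a-5p and higher relative to mmu-miR-122-5p and mmu-miR-192-5p in TAA liver. mmu-miR-122-5p and mmu-miR-192-5p are typical of hepatocytes, and mmu-miR-21a-5p is known to rise in injured liver. Here mmu-miR-21a-5p was higher in TAA on the TPM scale only (176925 to 221124 in control, 322706 to 378927 in TAA samples). With TMM scaling it overlapped, at 223372 to 299451 CPM in control and 198623 to 244420 CPM in TAA samples. Relative to mmu-miR-122-5p the log2 ratio of the summed guide arms was -2.65, -2.49 and -2.38 in control, -1.32, -1.79 and -1.89 in TAA and -2.80, -1.85 and -2.28 in recovery samples. It was higher in every TAA than in every control sample, by 0.84 on average (exact two-sided permutation test, p = 0.1, adjusted over 9 tests 0.225). Relative to mmu-miR-192-5p the log2 ratio was -1.20, -1.08 and -0.92 in control, -0.35, -0.81 and -0.66 in TAA and -0.86, -0.53 and -1.01 in recovery samples, with no overlap between TAA and control (difference 0.46, p = 0.1, adjusted 0.225, exact permutation). Recovery and TAA overlapped for both of these references, with a difference of -0.65 for mmu-miR-122-5p (p = 0.2, adjusted 0.3, exact permutation) and -0.19 for mmu-miR-192-5p (p = 0.4, adjusted 0.514, exact permutation). Relative to mmu-miR-21a-5p it was -2.37, -2.65 and -2.54 in control, -3.04, -3.52 and -3.32 in TAA and -2.40, -2.26 and -2.59 in recovery samples. TAA lay below both other groups without overlap, by a difference of -0.77 from control and with recovery higher than TAA by 0.88 (p = 0.1 and adjusted 0.225 for each, exact permutation). With 3 against 3 none of these tests can pass 0.05. Such separation was common: among ratios of single rows, 64.3% of all pairs tested did not overlap between TAA and control samples. Between recovery and TAA samples the share was 50.9%.

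**Figure D5:**
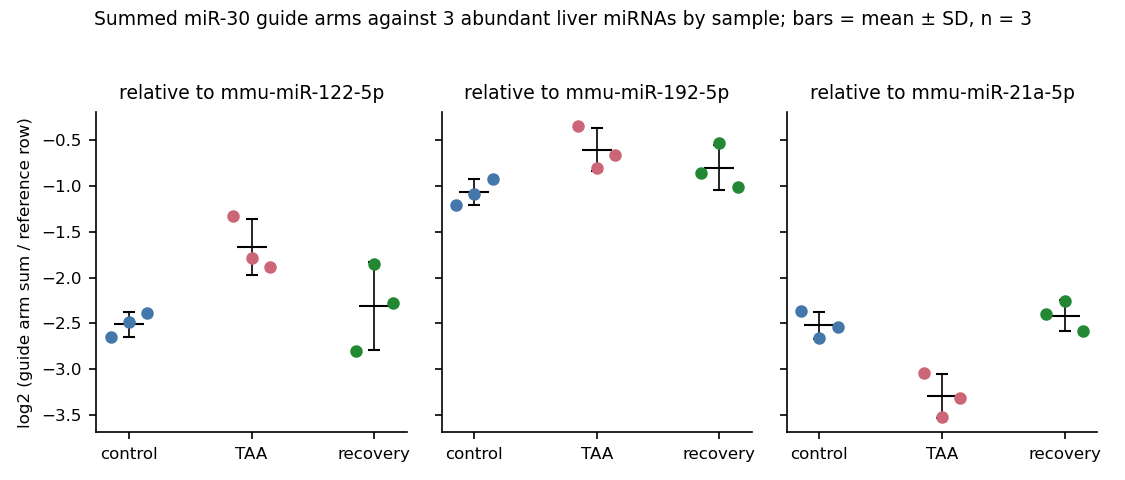
The log2 ratio of the summed guide arms to 3 abundant miRNAs (y axis, from counts of the same library) is drawn per sample for the 3 groups, with bars for mean ± SD (n = 3). The TAA samples lie above control for mmu-miR-122-5p and mmu-miR-192-5p and below control for mmu-miR-21a-5p, by 0.84, 0.46 and -0.77.

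The rows whose pattern over the 9 samples was most like the mean of the guide arms (Pearson's r of log2(CPM + 1), TMM scaling, 214 rows with a mean of at least 10 CPM outside the family) were mmu-miR-1948-5p (r = 0.985), mmu-let-7a-5p (0.984), mmu-miR-455-5p (0.984), mmu-miR-365-3p (0.972) and mmu-let-7f-5p (0.971). All were lower in TAA than in control with TMM, by log2 fold changes of -1.88, -0.79, -1.86, -1.83 and -0.75, and higher in recovery than in TAA. The r values follow mainly the difference between TAA and the other samples, and the samples share the TMM factors. With library totals the 5 closest rows were mmu-miR-221-5p (r = 0.729), 19b-3p, 26a-5p, 10a-5p and 215-5p, and 0 of the first 5 were among them.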

How the data were processed

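Small RNA was counted in 9 liver samples, grouped by the treatment in their labels. The authors extracted RNA with TRIzol, prepared libraries with the NEBNext small RNA kit, filtered reads with their own scripts and mapped them to mm10 and to mature miRNAs of miRBase with Bowtie (version 1.3.0, from the submitters' processing notes). The deposited table gives raw read counts and, as TPM, counts scaled by the authors to a common library total. Of 1140 rows, 34 were predicted miRNAs.

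Counts were tested with edgeR 4.0.16 (R 4.3.3): filterByExpr with a minimum count of 10, TMM factors, the quasi-likelihood F test on the 6 samples compared and Benjamini-Hochberg adjustment over all rows. The standard error was approximated from the fold change and the F statistic. CPM values are scaled by TMM factors over 9 samples. Arm ratios, log2((5p + 0.5)/(3p + 0.5)), were fitted over all samples with limma 3.58.1, with a variance trend on the rarer arm. The limma fit of ratios of pairs of rows used the samples compared and no variance trend. Single values were compared with exact two-sided permutation tests. DESeq2 1.42.0 (the authors used an earlier version of DESeq2), other scalings, filters and thresholds, limma on log2(TPM + 1) and log2(TPM + 0.1), and the removal of each replicate were alternatives. The scripts were tested on simulated data.

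The members, the marker lists and the tests were chosen with earlier results of these data known. Named were the members, the other family rows, rows sharing a seed, 3 abundant miRNAs and the 5 rows most like the guide arms. Replicate numbers are in the titles, but nothing says that they pair mice.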

Additional observations from a re-analysis of the deposited data

How the results depend on the processing

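Whether the members count as lowered in TAA liver rests on the scaling. The 5 DEMs of TAA vs control, the 3 of recovery vs TAA and the 3 reversed members each became 0 with library totals and with limma on log2(TPM + 1) or log2(TPM + 0.1). They became 3, 1 and 1 with a minimum mean of 10 CPM, and 8 each with the FDR alone, and a fit of all 9 samples gave 3 for TAA vs control. DESeq2, its size factors, no filter and taking out mmu-miR-122-5p and 122b-3p before scaling kept these counts within 1.5 times. Leaving out 1 sample gave 3 to 7, 1 to 6 and 1 to 6. The replicate numbers did not pair the samples: 1 of 9 samples correlated best with its own number, and r between deviations of same-numbered samples ran from -0.357 to 0.368. The fit with the replicate block gave 5, 3 and 0 DEMs among the members in the 3 comparisons and 3 reversed members.

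The share of the guide arms differed between TAA and control by -1.38 percentage points when mmu-miR-122-5p and 122b-3p were taken from the total and by -2.37 with the TMM size, and between recovery and TAA by 1.90 and 2.36. Guide pairs without overlap were 0 by an unadjusted limma p in both comparisons, and 3 to 6, 3 to 5 and, for recovery vs control, 0 to 4 with 1 sample left out (4 without recovery replicate 2, 2 without control replicate 3). For the arm ratios, 1 hairpin (30c-2) was called in TAA vs control with at least 50 counts on both arms. With 1 sample left out, added after the values were seen, the log2 difference between TAA and control in the guide sum ran from 0.67 to 0.95 relative to mmu-miR-122-5p, from 0.34 to 0.56 relative to mmu-miR-192-5p and from -0.90 to -0.66 relative to mmu-miR-21a-5p.

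Fold changes that turned in sign are given for library totals, log2(TPM + 1) and log2(TPM + 0.1) in this order. All of these scales rest on totals that hold the parallel miR-122 rows described above. For TAA against control they were 0.31, 0.30 and 0.31 for 30b-5p, 0.16, 0.16 and 0.16 for 30c-5p, 0.22, 0.21 and 0.21 for 30d-5p, 0.048, 0.037 and 0.037 for 30e-5p, 0.080, 0.064 and 0.065 for 30e-3p, 0.050, 0.041 and 0.042 for 30b-3p, 0.13, 0.12 and 0.12 for 30d-3p and 0.13, 0.12 and 0.12 for 30f. For recovery against TAA they were -0.23, -0.23 and -0.23 for 30b-5p, -0.044, -0.049 and -0.049 for 30c-5p, -0.023, -0.014 and -0.014 for 30d-5p and -0.20, -0.20 and -0.21 for 30d-3p. For recovery against control, where no member was called, they were 0.14, 0.12 and 0.12 for 30a-5p, 0.082, 0.078 and 0.078 for 30b-5p, 0.11, 0.11 and 0.11 for 30c-5p, 0.12, 0.085 and 0.085 for 30e-5p, 0.061, 0.056 and 0.056 for 30a-3p, 0.085, 0.084 and 0.084 for 30c-2-3p, 0.10, 0.081 and 0.081 for 30e-3p and 0.10, 0.090 and 0.094 for 30b-3p. There, a minimum of 10 CPM gave 0.016 for 30a-5p and 0.0040 for 30e-5p, no filter gave -0.013 for 30d-5p, and 30c-1-3p was at -0.0011 (DESeq2 size factors), -0.0012 (DESeq2), -0.021 (no filter) and -0.012 (replicate block).

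With 1 sample left out, signs near 0 also turned. The log2 fold change of recovery vs control ran from -0.17 to 0.020 for 30a-5p, -0.061 to 0.044 for 30d-5p, -0.24 to 0.090 for 30e-5p, -0.17 to 0.015 for 30e-3p, -0.15 to 0.13 for 30c-1-3p and -0.024 to 0.14 for 30f. For the change in log2 arm ratio, the ranges in TAA against control, recovery against TAA and recovery against control were -0.043 to 0.070, -0.10 to 0.16 and -0.093 to 0.17 for Mir30a and -0.10 to 0.060, -0.082 to 0.23 and -0.11 to 0.20 for Mir30e. It ran from -0.044 to 0.22 for miR-30d in the first of these, and in the last from -0.065 to 0.020 for miR-30b, -0.15 to 0.10 for 30c-1 and -0.056 to 0.10 for 30c-2. The cause of these turns was not tested. Counts of the members were at least 841 in every library.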

Other observations

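Some ratios between passenger arms were chosen after their values were seen. The log2 ratio of mmu-miR-30c-2-3p to mmu-miR-30c-1-3p, passengers of the same guide made at different loci, was 3.91, 3.91 and 3.92 in control, 3.59, 3.80 and 3.53 in TAA and 3.67, 3.80 and 4.04 in recovery replicates 1 to 3. All TAA samples were below all control samples, with a difference of -0.28, while recovery samples overlapped with both. The counts of mmu-miR-30c-1-3p were low, at 119, 91 and 89 in control and 106, 74 and 85 in TAA samples, so counting error weighs on this ratio. In TAA vs control 64.3% of all pairs of rows tested were without overlap, a share to set beside this ratio and the next. For mmu-miR-30a-3p to mmu-miR-30e-3p the log2 ratio was 1.44 ± 0.049 (SD, n = 3) in control, 1.25 ± 0.094 in TAA and 1.42 ± 0.22 in recovery samples, a difference of -0.19 between TAA and control without overlap. That of mmu-miR-30a-3p to mmu-miR-30c-2-3p was 0.98, 1.06 and 1.02 in control and 1.34, 1.15 and 1.06 in TAA samples, with 1.06 as the highest control and the lowest TAA value at this rounding.

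mmu-miR-30f is annotated on the strand opposite to Mir30e, over the same bases. Its mature sequence lies mostly opposite that of mmu-miR-30e-3p, and its seed, UAAACAU, is none of those given above. Whether its counts include reads of mmu-miR-30e-3p was not tested. Its TPM was 26.6, 25.1 and 23.6 in control, 33.5, 25.1 and 24.1 in TAA and 23.9, 32.2 and 32.7 in recovery samples. Relative to mmu-miR-30e-3p, on the log2 scale, it ran from -2.12 to -1.86 in control, from -1.99 to -1.93 in TAA and from -1.99 to -1.77 in recovery samples, with overlap between all groups.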
